A study of Solanum lycopersicum with 4 samples.

Results

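The transcripts of 9 antioxidant enzyme genes, 6 superoxide dismutases (SODs) and 3 catalases, were followed in the leaves of tomato (Solanum lycopersicum) during cold treatment. The genes were chosen by identifier out of 26219 genes with a read in any library, and each identifier came with an enzyme name. These were the cytosolic Cu/Zn SOD (Solyc01g067740), the plastid Cu/Zn SOD (Solyc11g066390), 3 Fe SODs (Solyc06g048410, Solyc06g048420 and Solyc02g021140), the Mn SOD (Solyc06g049080), and the catalases CAT1 (Solyc12g094620), CAT2 (Solyc02g082760) and CAT3 (Solyc04g082460). The identifiers, which by convention carry the chromosome number, place them on chromosomes 1, 2, 4, 6, 11 and 12. The RefSeq table of assembly SLM_r2.1 holds no such identifier, so the names could not be checked gene by gene. A symbol was looked up for 5 of the 9 only, namely SODCC.1, SODCP.2, FESOD, cat1 and CAT2, and each is listed on the same chromosome. FESOD, on chromosome 6, could stand for Solyc06g048410 or Solyc06g048420.

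Superoxide forms where electrons leak to oxygen, chiefly at the photosystems and in respiration, and chilling in the light is known to raise this leak in leaves. SODs turn superoxide into hydrogen peroxide and are classed by their metal: in plants the Mn enzyme is mitochondrial, Fe enzymes are mostly plastid enzymes, and Cu/Zn enzymes occur in the cytosol and in plastids. Catalases split hydrogen peroxide into water and oxygen, mainly in peroxisomes, where leaf photorespiration is a large source of it.

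RNA-seq libraries were made from the first true leaf pair of Moneymaker seedlings, a tomato cultivar, that were 3 weeks old and had spent 0, 3, 24 or 48 h at 10 °C, with 1 library per time and no replicate. Germination took 5 days in the dark. Growth before the cold then took 16 days at 25 °C with light of 100 µmol m-2 s-1. The light was cut to 40 µmol m-2 s-1 during the cold, with a 12 h photoperiod in each case, so lower temperature and lower light cannot be told apart. The labels do not say how many plants a library holds, at what hour leaves were taken, or whether the 0 h leaves had been moved to the lower light. If all plants entered the cold at the same hour, the 3 h leaves were taken at another hour of the day than the rest, and for them the hour and the time in the cold could not be told apart. Library totals, in units of 1000000 unique reads, lay between 35.7 and 38.5, and between 24049 and 24472 genes were listed per library. The labelled tissue was not checked against leaf markers, because the sources used here do not name their identifiers. With 1 library per time nothing below carries a test, a p-value or a spread between plants. Ratios describe these libraries, and the 95% intervals given with them cover counting error only.

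The 2 abundant catalases were lower at 48 h than at 0 h, and the SODs changed places among themselves. The TMM-scaled sum of the SODs stayed within 1.12 times between any compared libraries. With plain library totals that sum was less even, 1.33 times as high at 24 h as at 3 h. CAT1 was lower in each successive library and ended 5.18-fold below 0 h, and CAT2, the most abundant catalase, was 1.43-fold below 0 h at 48 h. Among the SODs, the Fe SOD Solyc02g021140, the cytosolic Cu/Zn SOD and the Mn SOD were higher at 24 and 48 h than at 0 h, by 2.23-, 1.77- and 1.65-fold at 48 h. The plastid Cu/Zn SOD was lower than at 0 h in all 3 cold libraries, most at 3 h. The dominant SOD, the Fe enzyme Solyc06g048410, stayed within 1.20-fold over the 4 libraries. In leaf RNA, fewer cells of a type and less RNA per cell cannot be told apart.

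**Figure D1:**
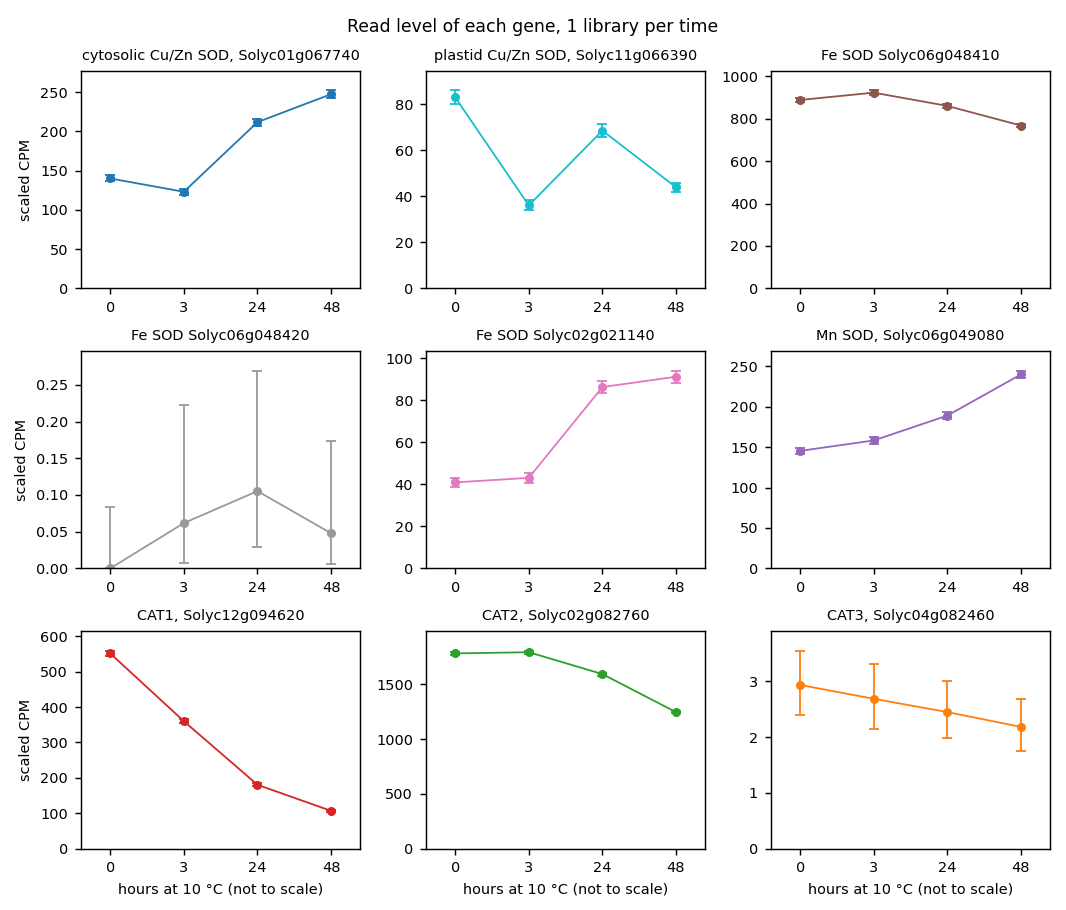
Scaled CPM (reads per 1000000 of the TMM-scaled library, y axis, from 0, its own scale for each gene) of the 9 genes against hours at 10 °C (x axis, equal steps for unequal times). Each point is 1 library, bars are exact 95% Poisson intervals for counting error, and Solyc06g048420 is drawn at 0 at 0 h, where no read is listed, with a bar up to the limit of 3 reads. CAT1 goes from 552 to 107 scaled CPM, while Solyc02g021140 lies near 40 at 0 and 3 h and near 90 at 24 and 48 h.

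The Cu/Zn SODs of the cytosol and of the plastid took different courses. Levels are given as scaled CPM, that is, reads per 1000000 after the libraries were scaled to each other by the trimmed mean of M values (TMM). For the cytosolic enzyme, 5063 reads were counted at 0 h, then 3989, 8051 and 10332 at the later times, which is 140, 123, 212 and 248 scaled CPM. It was thus lowest at 3 h and highest at 48 h, a range of 2.01-fold. Against 0 h its level was 1.14-fold lower at 3 h (95% interval 1.09 to 1.19), 1.51-fold higher at 24 h (1.46 to 1.57) and 1.77-fold higher at 48 h (1.71 to 1.83). The plastid enzyme, which acts beside the photosynthetic membranes, had 3003, 1169, 2608 and 1834 reads at 0, 3, 24 and 48 h, or 83.1, 36.1, 68.6 and 44.0 scaled CPM. Its 4 values alternate, with 0 and 24 h high and 3 and 48 h low. It was 2.30-fold lower than at 0 h at 3 h (2.15 to 2.47), 1.21-fold lower at 24 h (1.15 to 1.28) and 1.89-fold lower at 48 h (1.78 to 2.01). With plain library totals its log2 ratio of -0.28 at 24 h shrank to -0.09, and that of -0.92 at 48 h to -0.67. Only 0.737% of the 13840 genes compared had a smaller ratio at 3 h. Between 3 and 24 h it was 1.90-fold higher (1.77 to 2.04), and between 24 and 48 h 1.56-fold lower (1.47 to 1.66). A ratio of the pair within a library needs no scaling between libraries. Per gene length, the cytosolic gene had 1.19 times the reads of the plastid gene at 0 h (1.13 to 1.24), then 2.40 times (2.25 to 2.57), 2.17 times (2.08 to 2.27) and 3.97 times (3.77 to 4.17) in the order of the later libraries.

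The 3 Fe SODs differed in level and in course. Solyc06g048410 had 32123, 29919, 32713 and 32055 reads in time order, or 889, 924, 861 and 768 scaled CPM. Its range over the libraries, 0.27 in log2, was wider than that of only 10.0% of the genes compared. At 48 h it was 1.16-fold below 0 h (1.14 to 1.18), but with plain library totals the log2 ratio of -0.21 became 0.04, so its direction is not settled. Solyc02g021140 had 1480, 1397, 3281 and 3808 reads in time order, or 41.0, 43.1, 86.3 and 91.3 scaled CPM. The 0 and 3 h libraries were low and nearly equal, and the 24 and 48 h libraries were high. Against 0 h its ratio was 1.05 at 3 h with an interval that includes no difference (0.98 to 1.13), 2.11 at 24 h (1.98 to 2.24) and 2.23 at 48 h (2.10 to 2.37). From 24 to 48 h the ratio was 1.06 (1.01 to 1.11). Per gene length, Solyc06g048410 had 23.1 times its reads at 0 h (21.9 to 24.3), 22.8 times at 3 h (21.6 to 24.1), 10.6 times at 24 h (10.2 to 11.0) and 8.95 times at 48 h (8.66 to 9.26).

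The third Fe SOD, Solyc06g048420, was barely detected. Its identifier follows that of Solyc06g048410 on chromosome 6. At 0 h no read was listed, and the cold libraries held 2, 4 and 2 reads in time order. A count of 0 allows up to 3 reads, or 0.083 scaled CPM at 0 h, so the libraries could not be ordered at this depth. Reads covered from 16.6% to 31.7% of its 483 bases where it was listed, beside 99.7% of the 1005 bases of Solyc06g048410 in each library. The counts are of unique reads, and if reads matching both neighbours were left out, the counts of either could be too low. That was not tested.

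The Mn SOD, the mitochondrial enzyme, was higher in each successive library. In time order 5253, 5129, 7185 and 10016 reads were counted, or 145, 158, 189 and 240 scaled CPM. Its ratio to 0 h was 1.09 at 3 h (1.05 to 1.13), 1.30 at 24 h (1.26 to 1.35) and 1.65 at 48 h (1.60 to 1.71). It was 1.27-fold higher at 48 than at 24 h (1.23 to 1.31). No library pair put it 2-fold apart.

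CAT1 had the widest range of the 7 genes that passed the filter on low counts described below. Its reads numbered 19941, 11665, 6853 and 4446 in time order, or 552, 360, 180 and 107 scaled CPM. Each library was below the one before it. The level was 1.53-fold below 0 h at 3 h (1.50 to 1.57), 3.06-fold at 24 h (2.98 to 3.15) and 5.18-fold at 48 h (5.01 to 5.35), and from 24 to 48 h it was again 1.69-fold lower (1.63 to 1.76). With plain library totals the log2 ratios to 0 h of -1.61 at 24 h and -2.37 at 48 h became -1.43 and -2.12. The intervals do not cover this choice of scaling. At 48 h only 106 of the 13840 genes compared, 0.766%, had a smaller ratio to 0 h. Its range, 2.37 in log2, exceeded that of 95.4% of genes.

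CAT2 was high in every library. Its reads numbered 64469, 58140, 60618 and 52050 in time order, or 1784, 1795, 1595 and 1247 scaled CPM. The 0 and 3 h libraries were alike and the 48 h library was the lowest. Its ratio to 0 h was 1.01 at 3 h (0.99 to 1.02) and 0.89 at 24 h (0.88 to 0.90), and both values changed side with plain library totals, which gave log2 ratios of -0.06 and 0.02. At 48 h CAT2 was 1.43-fold lower than at 0 h (1.41 to 1.45), a log2 ratio of -0.52 that was -0.26 with plain totals. Per gene length, CAT2 had 2.51 times the reads of CAT1 at 0 h (2.47 to 2.55), 3.87 times at 3 h (3.79 to 3.95), 6.86 times at 24 h (6.69 to 7.04) and 9.08 times at 48 h (8.81 to 9.37). CAT3 was a minor transcript, with 106, 87, 93 and 91 reads in time order, or 2.93, 2.69, 2.45 and 2.18 scaled CPM. Its ratio to 0 h had intervals including no difference at 3 h (0.68 to 1.23) and at 24 h (0.62 to 1.11). At 48 h the ratio was 0.74 with an upper bound of 0.99, and the log2 ratio of -0.41 shrank to -0.18 with plain totals.

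These genes were read against the whole transcriptome at a 2-fold threshold on the log2 ratio of scaled CPM, with a pseudocount of 5 reads at the mean library size (0.135 CPM). Genes were compared if all 4 libraries listed them and their mean was at least 5 CPM, which left 13840 genes and 7 of the 9 enzyme genes. CAT3, with a mean of 2.56 CPM, and Solyc06g048420 did not pass. At 3 h against 0 h, 1 of the 7, the plastid Cu/Zn SOD, was at least 2-fold lower and 0 were higher, where 1.13% of all genes were lower and 4.76% higher. At 24 h, Solyc02g021140 was the 1 gene that lay 2-fold or more above 0 h and CAT1 the 1 gene that lay below, where 9.65% of all genes were higher and 8.28% lower. At 48 h, Solyc02g021140 was again the 1 gene higher and CAT1 the 1 gene lower, where 10.0% of all genes were higher and 8.48% lower, and with plain library totals the cytosolic Cu/Zn SOD passed 2-fold as well. With TMM scaling these counts rest on at most 1 gene each, so nothing is read from them about the group. The shares of all genes are for that scaling only. The comparisons with 0 h share that library.

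Successive cold libraries were compared in the same way, while 48 h was not set against 3 h. From 3 to 24 h, 0 of the 7 were called in either direction, where 8.24% of all genes were higher and 9.45% lower. Solyc02g021140 was just short of the threshold there, with a log2 ratio of 0.9994, and CAT1 with a log2 ratio of -0.997. With plain library totals 3 of the 7 were at least 2-fold higher there, Solyc02g021140 and both Cu/Zn SODs. That scaling also moved the median log2 ratio of all genes to 0.25. The shares of 8.24% and 9.45% are for TMM scaling, and none is given for plain totals, so the 3 cannot be set against all genes. From 24 to 48 h, 0 of the 7 were called, where 1.12% of all genes were higher and 1.47% lower. Against 0 h, the median log2 ratios of the 7 were 0.01, -0.05 and -0.21 in time order, beside 0.00, 0.02 and 0.00 over all genes. At 48 h, 3 of the 7 lay above 0 h and 4 below, so this median joins genes on opposite sides. The medians at 24 and 48 h were the ratios of Solyc06g048410 itself. With plain totals its ratios became 0.14 and 0.04, beside medians of 0.20 and 0.26 over all genes, so the split depends on the scaling.

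**Figure D2:**
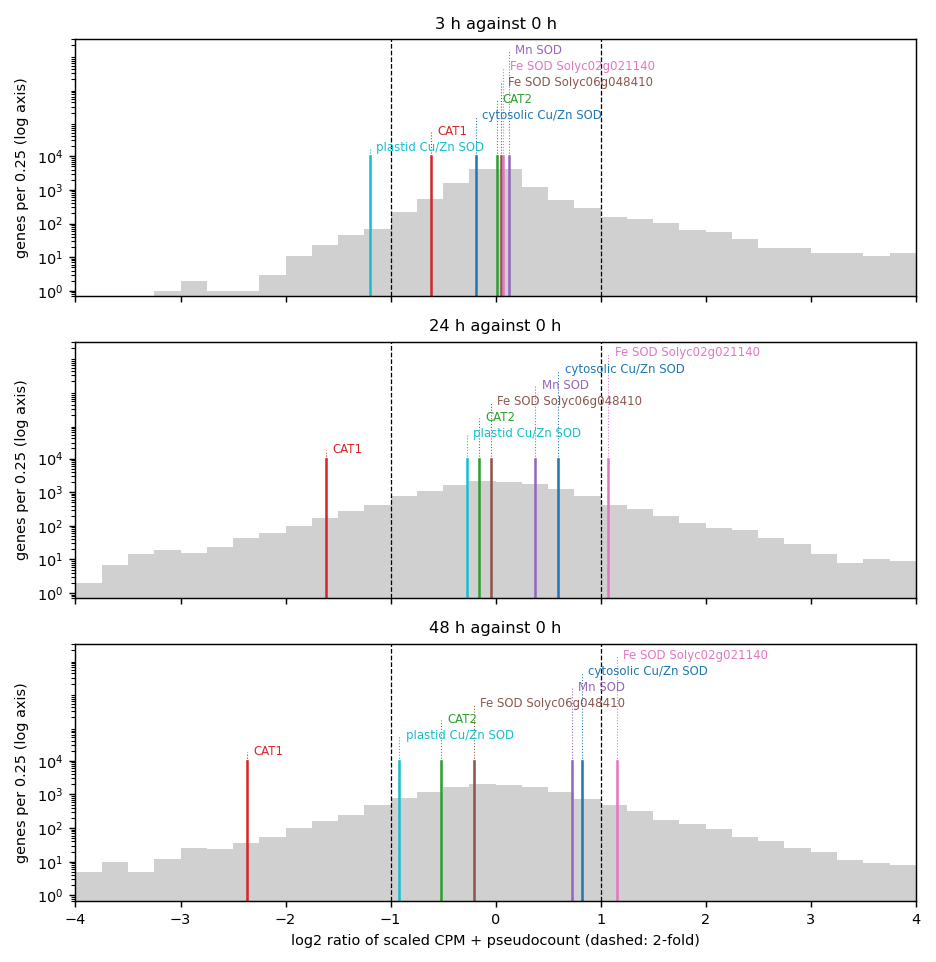
Number of genes per 0.25 step of log2 ratio (grey bars, y axis on a log scale) for 3, 24 and 48 h against 0 h, over the 13840 genes compared, with coloured lines at the 7 enzyme genes that passed the filter and dashed lines at 2-fold. The few genes beyond 4 in log2 are not drawn. The plastid Cu/Zn SOD lies beyond the lower line at 3 h, CAT1 beyond it at 24 and 48 h (-1.61 and -2.37), and Solyc02g021140 beyond the upper line at 24 and 48 h (1.07 and 1.15); the line of Solyc06g048410 changes side of 0 with plain library totals in each panel, and that of CAT2 does at 3 and 24 h.

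Levels of different genes were set beside each other with the authors' RPKM, which divides reads by gene length and by the library total. At 0 h CAT2 led with 878 RPKM, followed by Solyc06g048410 with 830 and CAT1 with 350. Those values rank 111, 120 and 284 among the 24225 genes listed at 0 h. Below them came the Mn SOD with 142 and the cytosolic Cu/Zn SOD with 141 RPKM, a pair that did not differ beyond counting error (ratio 1.01, 0.97 to 1.05). The plastid Cu/Zn SOD had 119, Solyc02g021140 35.9 and CAT3 1.64 RPKM. All other neighbours in this order differed by more than counting error.

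At 48 h the order was different. Solyc06g048410 led with 854 RPKM, 1.17 times CAT2 at 731 (1.15 to 1.18). The cytosolic Cu/Zn SOD at 298 and the Mn SOD at 280 RPKM came next, ahead of Solyc02g021140 at 95.4. CAT1, 3rd at 0 h, was now 6th with 80.5 RPKM, 1.07 times the plastid Cu/Zn SOD at 75.1 (1.02 to 1.13). CAT3 was 8th in each library. The lead had already passed from CAT2 to Solyc06g048410 at 24 h, by 1.02 times (1.01 to 1.04), after CAT2 had led by 1.02 times at 3 h (1.01 to 1.04). Which gene led by so little rests on the listed lengths, 1906 bases for CAT2 and 1005 for Solyc06g048410, which these intervals do not cover.

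Shares within a class are free of the scaling between libraries. Of the summed reads per length of the 6 SODs, Solyc06g048410 held 65.4% at 0 h (65.0 to 65.8), 70.0% at 3 h (69.6 to 70.5), 58.4% at 24 h (57.9 to 58.8) and 53.3% at 48 h (52.9 to 53.7). The cytosolic Cu/Zn SOD went from 11.2% at 0 h to 10.1%, 15.5% and 18.6%. The Mn SOD went from 11.2% to 12.6%, 13.5% and 17.5%, and Solyc02g021140 from 2.83% to 3.07%, 5.50% and 5.95%. The plastid Cu/Zn SOD held 9.40%, 4.20%, 7.15% and 4.69%. Among the catalases CAT2 held 71.4% at 0 h (71.1 to 71.7), 79.4% at 3 h (79.0 to 79.7), 87.2% at 24 h (86.9 to 87.4) and 89.9% at 48 h (89.6 to 90.2). CAT1 made up nearly all of the rest, and CAT3 held from 0.133% to 0.179%.

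**Figure D3:**
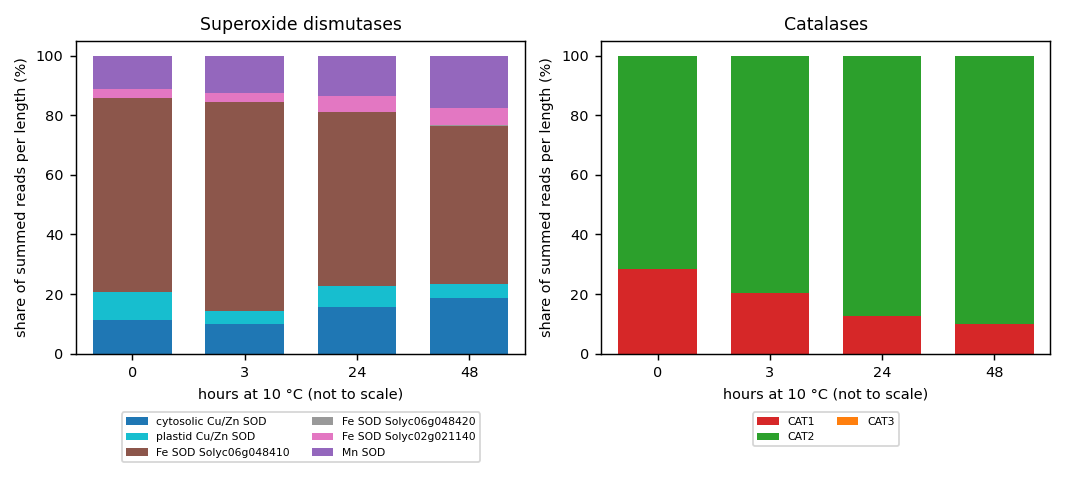
Share of each gene in the summed reads per gene length of its class (y axis, percent, bars add to 100) in each library (x axis, hours at 10 °C, not to scale), for the 6 SODs and the 3 catalases. The share of CAT1 goes from 28.5% to 9.90% and that of Solyc06g048410 from 65.4% to 53.3% between 0 and 48 h; CAT3 and Solyc06g048420 are too small to see.

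Summed per length, the 2 classes started level and ended apart. The SODs added up to 1352, 1312, 1468 and 1434 scaled CPM per kilobase at 0, 3, 24 and 48 h, and at 48 h their sum was 1.06 times that at 0 h (1.05 to 1.07). With the authors' RPKM, which uses plain totals, that ratio was 1.26. The catalases added up to 1311, 1187, 960 and 728 scaled CPM per kilobase, and their sum at 48 h was 0.56 times that at 0 h (0.55 to 0.56), or 0.66 times in RPKM. The catalase sum divided by the SOD sum, which needs no scaling, went from 0.97 at 0 h to 0.90, 0.65 and 0.51 in the cold libraries. Transcript sums are not enzyme amounts or activities, which were not measured.

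**Figure D4:**
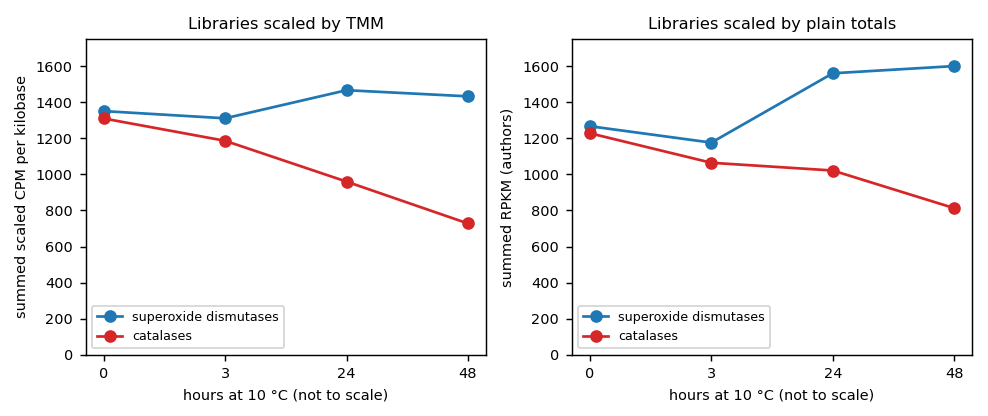
Summed level per gene length of the 6 SODs and of the 3 catalases (y axes from 0) against hours at 10 °C (x axis, not to scale), as TMM-scaled CPM per kilobase (left) and as the authors' RPKM (right), 1 library per point. The catalase sum is lower in each successive library on both scales, down to 728 scaled CPM per kilobase and 813 RPKM, while the later SOD sums lie closer to 0 h with TMM scaling than with plain totals.

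The 7 courses were compared by the root mean square difference of their log2 levels over the 4 libraries, each centred on its own mean. The closest pair joined the classes: Solyc06g048410 and CAT2, the most abundant SOD and catalase, differed by 0.116. They also had the smallest ranges of the 7, 0.27 and 0.52 in log2, and flat courses differ little by this measure. The cytosolic Cu/Zn SOD differed by 0.173 from Solyc02g021140 and by 0.195 from the Mn SOD. The cytosolic and plastid Cu/Zn SODs differed by 0.618, the Fe SODs Solyc06g048410 and Solyc02g021140 by 0.622, and CAT1 and CAT2 by 0.720. Neither the Cu/Zn pair, the pair of Fe SODs nor the pair of catalases was among the 3 closest. The largest distance, 1.43, lay between Solyc02g021140 and CAT1.

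Outside the enzyme genes, the course nearest to CAT1 among 13833 genes was that of Solyc07g032490.2.1, with 11430, 6554, 3489 and 2497 reads in time order and a difference of 0.0665. It too was lower in each successive library. The plastid Cu/Zn SOD had the widest TMM-scaled range of the SODs, 1.20 in log2 beside 1.15 for Solyc02g021140. With plain totals it did not. The log2 ratio of Solyc02g021140 to 0 h then reached 1.41 at 48 h, and that of the plastid gene -1.27 at 3 h. The course nearest to the plastid Cu/Zn SOD was that of Solyc02g062690.2.1, with 1544, 651, 1298 and 1041 reads and a difference of 0.0791. Solyc07g032490.2.1 and Solyc02g062690.2.1 are not paired with names in the sources used here. Within 0.1 of CAT1 lay 6 genes, and within 0.1 of the plastid Cu/Zn SOD 2 genes. Over 4 libraries with no replicate, likeness is a description only.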

How the data were processed

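RNA-seq reads of 4 tomato leaf libraries, 1 per time, were analysed from the deposited gene lists. Per the file headers, the authors listed 4 values a gene: its count of unique reads, its length, its covered percent, and its RPKM, reads per kilobase and per 1000000 unique reads. The deposited counts summed to the total in each header, and the authors' RPKM followed from count, length and total. Genes without a read are left off each list, and were taken as 0. The aligner, counter, strand setting, build and annotation were not given in the sources used here. Stray annotation text stands on 73 lines of the 3 h file and 4 lines of the 24 h file, none on the 9 genes, and was not used. The deposited coverage percent was used to describe genes only.

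Counts were scaled with TMM factors (edgeR 4.0.16 in R 4.3.3, for scaling only) of 0.94, 0.90, 1.06 and 1.12 at 0, 3, 24 and 48 h. Log2 ratios carry a pseudocount of 5 reads at the mean library size, which understates changes of low genes. Folds of single genes are ratios of scaled counts without it, with exact Clopper-Pearson 95% intervals. Shares and sums per length have delta-method intervals. Since reads lack molecular identifiers and are not independent molecules, these cover counting error only. At the filter of 5 CPM a gene has about 185 reads per library. The computation was tested on simulated data.

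All 9 genes are named, with the nearest course to the widest-ranging SOD and to the widest-ranging catalase, both picked on TMM-scaled levels. The genes, thresholds and lists were chosen with earlier results of these data known. Lists of further SODs, ascorbate peroxidases and leaf markers were not used, since their identifiers are not named in the sources used here. Alternatives were DESeq2 1.42.0 size factors, plain totals, pseudocounts of 0.5 and 25 reads, a 4-fold threshold and shares of reads without division by length. The CPM filter was also dropped or raised to 20 CPM, with genes still required to be listed in all 4 libraries.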

Additional observations from a re-analysis of the deposited data

Results flagged for a closer look

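The cytosolic Cu/Zn SOD lay below 0 h at 3 h, with a log2 ratio of -0.19, and above it at 24 h (0.60) and 48 h (0.82), each with a counting interval on 1 side of no difference. The Fe SOD Solyc06g048410 went the opposite way, with log2 ratios to 0 h of 0.06, -0.05 and -0.21 in time order, but these changed sign with plain library totals, to -0.01, 0.14 and 0.04. Neither difference between times could be tested against the spread between plants. Solyc06g048420, which entered the SOD shares and sums but not the 2-fold comparisons, had 4 reads at 24 h and none at 0 h, where up to 3 reads are allowed for. Counting error does not separate these libraries.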

How the results depend on the processing

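No paired analysis was possible because no time has a second library, so none could be left out either. Plain library totals moved the median log2 ratio of all genes to 0.20 at 24 h and 0.26 at 48 h against 0 h, and to 0.25 at 24 h against 3 h. Of 40 ratios, 5 for each of the 8 enzyme genes listed in every library, 32 kept their sign with plain totals; the 8 that did not were 4 of Solyc06g048410, 3 of CAT2 and 1 of CAT3, each small. DESeq2 size factors and the other pseudocounts kept all 40 signs, though a pseudocount cannot turn a sign. With plain totals 2 genes instead of 1 were at least 2-fold higher at 48 h than at 0 h, the added gene being the cytosolic Cu/Zn SOD, and 3 instead of 0 at 24 h than at 3 h. DESeq2 size factors and a pseudocount of 0.5 reads each gave 1 instead of 0 in that last comparison, where Solyc02g021140 was just short of 2-fold. Shares of all genes are given for the main settings only, so none stands beside these changed counts. At 4-fold, CAT1 at 48 h was still called, while the counts lower at 3 h, higher and lower at 24 h and higher at 48 h, all against 0 h, became 0, as a stricter threshold must allow. Filters left every count as it was. Without division by gene length, Solyc06g048410 held 68.5%, 71.9%, 60.8% and 55.2% of the SOD reads at 0, 3, 24 and 48 h, and CAT2 76.3%, 83.2%, 89.7% and 92.0% of the catalase reads, by the construction of that share. With plain totals the difference from the gene named above was 0.0665 for CAT1 and 0.0792 for the plastid Cu/Zn SOD. Scaling moves all genes of a library alike, so these values had to stay nearly unchanged and check nothing. Depth limits Solyc06g048420 and CAT3. For the other 7 genes the missing replicates and the choice of scaling, and not depth, limit what can be said.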
